A study of Saccharomyces cerevisiae with 2 samples.

Results

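The genes described here encode the Sho1 branch of the high-osmolarity glycerol (HOG) pathway of Saccharomyces cerevisiae, and were chosen by open reading frame (ORF) name. They are MSB2 (YGR014W), HKR1 (YDR420W), OPY2 (YPR075C), CDC42 (YLR229C), STE20 (YHL007C), CLA4 (YNL298W), STE50 (YCL032W), STE11 (YLR362W), PBS2 (YJL128C) and HOG1 (YLR113W). These are 10 of the 6207 ORFs in the deposited table, and all 10 had a value on both arrays. SHO1 itself had a value on 0 arrays. By genotype label, both RNAs on each array came from a sho1 mutant, so a ratio could not have checked the mutation in any case.

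The cells were a sho1 mutant of BY4741, a haploid laboratory strain of mating type a, and every RNA in the comparison carried that mutation. Cultures at 24 °C received Zymolyase, a mixture of enzymes that breaks down wall glucan, at 0.8 units per ml for 3 hours, or no enzyme. Treated and untreated RNA were hybridised together on each of 2 arrays with the dyes exchanged: treated RNA carried Cy3 on replicate 1 and Cy5 on replicate 2. The sources used here give neither the kind of sho1 allele nor the number of mutant clones. The comparison asks whether transcripts of this branch differ after wall damage in cells mutated in the sensor gene SHO1.

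In the Sho1 branch, the mucin-like membrane proteins Msb2 and Hkr1 act with the membrane protein Sho1 as sensors, and the membrane protein Opy2 recruits the adaptor Ste50. The GTPase Cdc42 activates the PAK-family kinases Ste20 and Cla4, which phosphorylate the kinase Ste11. Ste11 activates the MAP kinase kinase Pbs2, which activates the MAP kinase Hog1. Ste20, Ste50 and Ste11 also serve the mating and filamentation pathways. In wild-type cells, the response to Zymolyase passes through this branch to the cell wall integrity kinase Slt2. All of these steps act on proteins, whereas the arrays measured transcripts.

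No gene of the branch passed the test in either direction. With limma's moderated test, adjusted by Benjamini-Hochberg over 5311 ORFs, 0 of the 10 genes were higher, against 0.772% of all ORFs (41 ORFs). Likewise 0 of the 10 were lower, against 0.0% of all ORFs. At an unadjusted limma p under 0.05 there were also 0 of the 10, against 3.60% of ORFs. The means of the 10 genes lay between -0.22 for CLA4 and 0.23 for MSB2 on the log2 scale. The smallest mean among the 41 ORFs that passed was 0.55, or 1.47-fold. The labels do not tie the arrays to separate cultures, so these p-values cover only how far 2 arrays differ, and that spread may be technical.

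The direction of the deposited ratios is not stated. A positive value is read here as higher in treated cells, which is an assumption. Both records are labelled as the same comparison of treated with untreated cells, without saying which RNA was divided by which. If the opposite holds, higher and lower are exchanged throughout this text. Across all ORFs the 2 columns had a Pearson r of -0.01 and a Spearman rho of -0.26, and they do not settle whether both run the same way. Each branch gene is therefore given for both arrays, and its mean with the sign of replicate 1 turned is given beside the main one. With that sign turned, 0 of the 10 genes and 0.0% of all ORFs passed limma's adjusted p. Turning changed the sign of the mean for 6 of the 10 genes, which happens wherever replicate 1 had the larger absolute value. The share over all ORFs was not counted, so this count is not read as a trait of the branch.

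Of the membrane proteins, MSB2 had the highest mean of the branch, and its value came mostly from replicate 2. MSB2 was 0.05 on replicate 1 and 0.41 on replicate 2, so that its log2 ratios averaged 0.23 ± 0.25 (SD, n = 2 arrays). Replicate 2 placed MSB2 at percentile 98.0 of all ORFs and replicate 1 at percentile 67.5. Its mean was 1.18-fold, with a limma 95% interval from -0.04 to 0.51 (adjusted p = 1.00). With replicate 1 turned, the mean of MSB2 was 0.18 (limma adjusted p = 0.672), and its values on the 2 arrays then differed in sign.

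HKR1, which encodes the other mucin-like sensor, had closer values on the 2 arrays. It was 0.05 on replicate 1 and 0.16 on replicate 2, a mean of 0.11 ± 0.07 (SD, n = 2). Both sensors were thus above 0 on both arrays, and each of their intervals included 0 (for HKR1, from -0.16 to 0.37). The mean of HKR1 was 0.05 with replicate 1 turned. OPY2, which encodes the anchor of Ste50, differed in sign, with 0.26 on replicate 1 and -0.06 on replicate 2. Its mean was 0.10 ± 0.23 (SD, n = 2) as deposited and -0.16 with replicate 1 turned. The 3 membrane protein genes had means from 0.10 to 0.23, the highest 3 of the branch as deposited, with CDC42 next at 0.09. They were the highest 3 on neither array alone. MSB2 and HKR1 ranked 4 and 5 of the 10 on replicate 1, and OPY2 ranked 6 on replicate 2. Nor were they with replicate 1 turned, since HOG1 at 0.12 lay above HKR1 and OPY2.

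**Figure D1:**
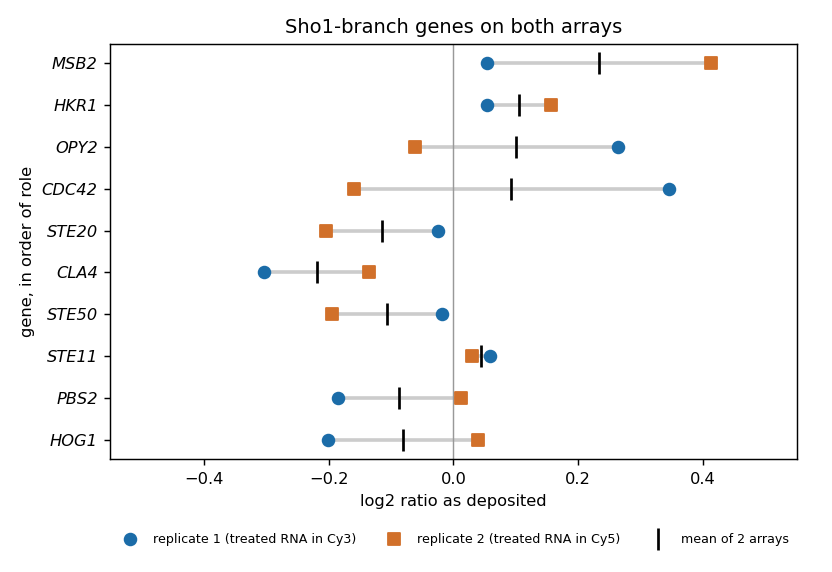
Log2 ratio as deposited (x axis) of each of the 10 genes, in order of role, with replicate 1 as circles, replicate 2 as squares and the mean as a vertical tick. MSB2, HKR1 and STE11 lie above 0 on both arrays, STE20, CLA4 and STE50 below 0 on both, and the other 4 genes cross 0.

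In the columns as deposited, the GTPase gene CDC42 had the widest gap between arrays in the branch. It was 0.35 on replicate 1 and -0.16 on replicate 2, a gap of 0.51 that lay at percentile 91.2 of the absolute gaps of all ORFs. Its mean of 0.09 ± 0.36 (SD, n = 2) was smaller than that gap, and the arrays placed CDC42 at percentiles 94.97 and 19.12. With replicate 1 turned, CDC42 had a mean of -0.25 (limma adjusted p = 0.505). The size of a turned mean is set by the gap as deposited, so this mean restates the widest gap and is no further result. CDC42 was then the 1 branch gene with an unadjusted limma p below the 0.05 level, which 9.40% of all ORFs also reached in that reading. Its gap between arrays was then 0.19, against 0.47 for MSB2 and 0.44 for CLA4.

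Both PAK-family kinase genes were below 0 on both arrays. CLA4, whose product acts in polarised growth and septin assembly, had the lowest mean of the branch. It was -0.30 on replicate 1 and -0.13 on replicate 2, with a mean of -0.22 ± 0.12 (SD, n = 2), or 1.16-fold lower. Its limma 95% interval ran from -0.49 to 0.05 (adjusted p = 1.00), and its mean was 0.08 with replicate 1 turned. STE20, the kinase gene shared with mating and filamentation, was -0.03 on replicate 1 and -0.20 on replicate 2, a mean of -0.11 ± 0.13 (SD, n = 2). Its mean was -0.09 with replicate 1 turned. The kinases are related in sequence, and whether their spots share sequence could not be checked here.

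The adaptor gene STE50 and the kinase gene STE11 had small values. STE50 was -0.02 on replicate 1 and -0.20 on replicate 2, and its mean was -0.11 as deposited and -0.09 with replicate 1 turned. As deposited, STE11 had the smallest absolute mean and the smallest gap of the branch: 0.06 on replicate 1 and 0.03 on replicate 2, a mean of 0.04 ± 0.02 (SD, n = 2). Its limma 95% interval still ran from -0.22 to 0.31, because the pooled spread of all ORFs sets most of its width. Its mean was -0.01 with replicate 1 turned.

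PBS2 and HOG1, the last kinases of the branch, had nearly the same values as each other on both arrays. This likeness was noted after the values were seen, and how often other ORFs lie as close was not counted. PBS2 was -0.18 on replicate 1 and 0.01 on replicate 2, a mean of -0.09 ± 0.14 (SD, n = 2). HOG1 was -0.20 on replicate 1 and 0.04 on replicate 2, a mean of -0.08 ± 0.17 (SD, n = 2). Both were below 0 on replicate 1 and close to 0 on replicate 2. With replicate 1 turned their means were 0.10 and 0.12, with limma adjusted p of 0.720 and 0.662.

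A label bears on HOG1. The comment for 1 of the 4 labelled RNAs, the untreated RNA of replicate 2, names a hog1 mutant where its own genotype label and all other labels say sho1. HOG1 on that array was at percentile 66.2 of all ORFs. The HOG1 gap between arrays, -0.24 for replicate 1 minus replicate 2, was at percentile 63.7 of absolute gaps. Which label is right was not tested.

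Among themselves the 10 genes kept no common order on the arrays. Of their 45 pairs, 23 stood in the same order on both. The Pearson r between arrays over the 10 genes was 0.002 and the Spearman rho 0.05, as a description of genes that share both arrays. CDC42 was the highest of the 10 on replicate 1 and ranked 8 on replicate 2, while HOG1 ranked 9 and then 3. CLA4 was the lowest on replicate 1 and STE20 the lowest on replicate 2.

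By sign, 3 of the 10 genes were above 0 on both arrays (14.0% of all ORFs), 3 were below 0 on both (26.8%) and 4 had opposite signs (59.3%). The median of their means was -0.02, against -0.03 for all ORFs tested. The median absolute mean was 0.10 in the branch and 0.07 over all ORFs, and the median absolute gap between arrays was 0.19 and 0.17.

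**Figure D2:**
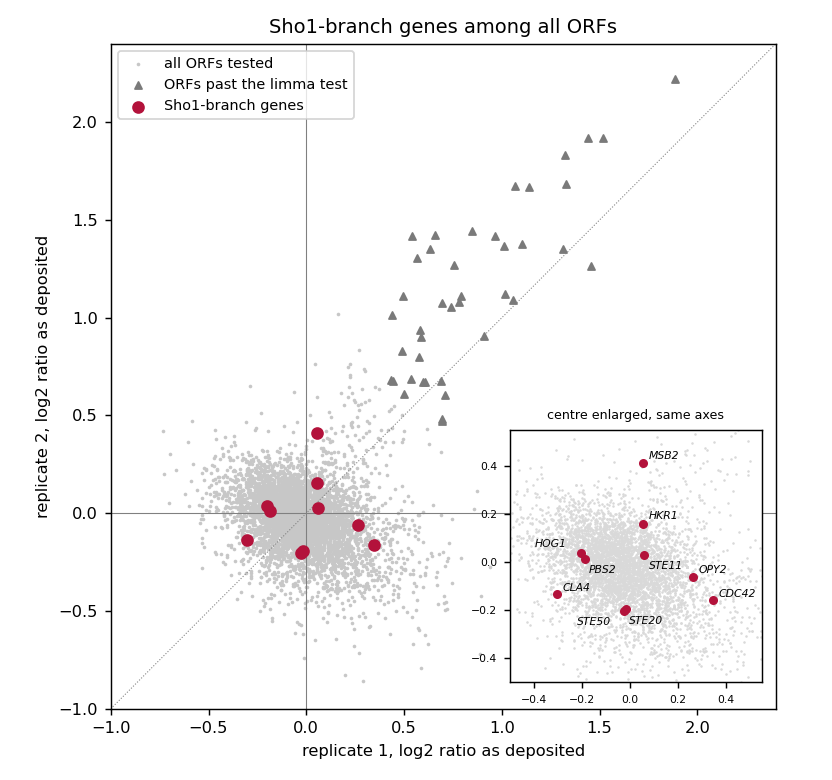
Log2 ratio as deposited on replicate 1 (x axis) and replicate 2 (y axis) for all 5311 ORFs (grey), the 41 ORFs past the limma test (triangles) and the 10 Sho1-branch genes (red, named in the enlarged centre). The branch genes lie within the central cloud, with MSB2 at its upper edge on replicate 2, and apart from the triangles.

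By size alone, 0 of the 10 genes reached a mean of 1.2-fold with the same sign on both arrays. Over all ORFs, 2.49% reached it as higher and 1.22% as lower. At 1.5-fold there were 0 of the 10, against 0.715% higher and 0.0% lower. On replicate 1 alone, OPY2, CDC42 and CLA4 were at least 1.2-fold from 1, which is 3 of 10 against 16.7% of ORFs. On replicate 2 alone MSB2 was, which is 1 of 10 against 12.3%. No gene reached that size on both arrays.

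The intervals give the changes that the test leaves possible, given how far the arrays differ. All 10 intervals of limma included 0, and their ends lay between -0.49 (CLA4) and 0.51 (MSB2). In the reading as deposited, changes of more than 1.40-fold lower or 1.43-fold higher were therefore outside the 95% interval of each gene. The widths rest on a spread pooled over ORFs, with 1 residual degree of freedom per gene and 23.5 prior degrees of freedom. With replicate 1 turned, the ends reached 1.40-fold lower (CDC42) and 1.45-fold higher (MSB2). The interval of CDC42 then did not include 0, which restates its wide gap as deposited.

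**Figure D3:**
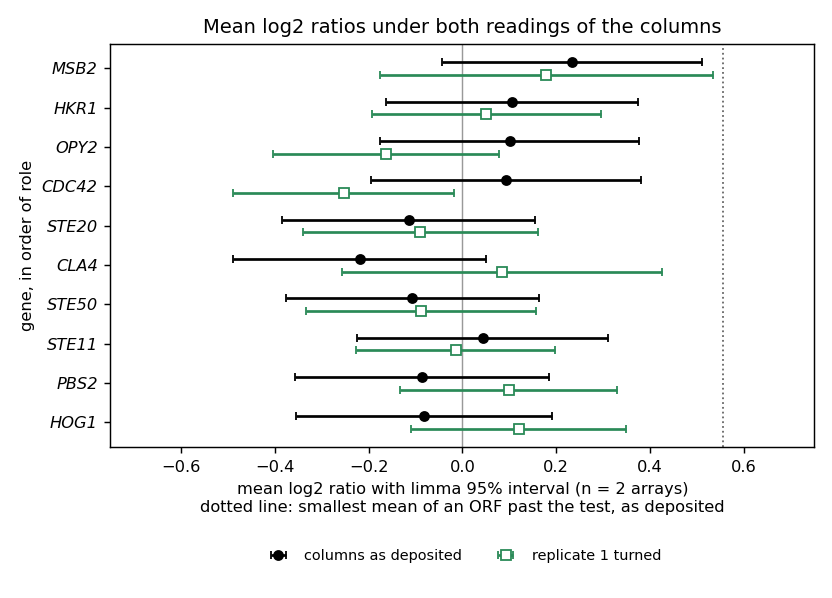
Mean log2 ratio with its limma 95% interval for each gene (n = 2 arrays), with the columns as deposited (filled circles) and with replicate 1 turned (open squares). All 10 intervals of the deposited reading include 0 and end left of the dotted line at 0.55, the smallest mean of an ORF past the test; with replicate 1 turned the CDC42 interval lies below 0.

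The Sln1 branch reaches Pbs2 through a phosphorelay and does not need Sho1. Of its 5 listed genes, 0 passed limma's test in either direction, and their median log2 ratio was -0.004 (0.06 on replicate 1, -0.07 on replicate 2). On the arrays 4 of the 5 had opposite signs, against 59.3% of all ORFs. The exception was YPD1, the phosphotransfer protein gene, at 0.03 and 0.05. Of 6 genes for phosphatases and an adaptor that act on Hog1 and Pbs2, 0 passed and the median was 0.04. PTP2, a tyrosine phosphatase gene for Hog1, was 0.35 on replicate 1 and 0.23 on replicate 2. Its mean of 0.29 ± 0.08 (SD, n = 2) missed the threshold (limma adjusted p = 1.00, unadjusted p = 0.0357). The mean of PTP2 was -0.06 with replicate 1 turned. PTC2, a phosphatase gene of another type, was -0.15 and -0.16.

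Regulators and other effectors of Cdc42 also had 0 of 10 past the test, with a median of 0.003 (0.06 on replicate 1, -0.03 on replicate 2). BEM3, a GTPase-activating protein gene, was 0.16 on replicate 1 and 0.06 on replicate 2. GIC2, a Cdc42 effector gene, was -0.22 and -0.31, a mean of -0.26. Of 6 measured genes of Hog1 substrates in transcription and translation, 0 passed, with a median of -0.06. MSN1, a transcription factor gene, had a mean of -0.16, and RCK2, a Hog1-activated kinase gene, had -0.10.

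Downstream, the osmotic stress targets had 0 of 11 measured genes past the test and a median of -0.09, which was -0.12 on replicate 1 and -0.01 on replicate 2. Of these 11, 5 were below 0 on both arrays, 1 was above 0 on both and 5 had opposite signs. Over all ORFs these shares were 26.8%, 14.0% and 59.3%, and the difference was not tested. GPP2, a glycerol phosphatase gene, was -0.20 and -0.15. HXT1, a glucose transporter gene, was -0.17 and -0.22. STL1, the glycerol symporter gene strongly induced by osmotic stress, had no value on either array.

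The mating and filamentation cascade, which shares Ste20, Ste50 and Ste11 with the branch, had 0 of 10 further genes past the test and a median of -0.08. That median came from replicate 2, at -0.12, while replicate 1 gave 0.0002. STE12, its transcription factor gene, was -0.09 and -0.16, and STE4, the G protein beta subunit gene, was -0.13 and -0.09. Mating type markers also gave 0 past the test. The 6 measured a markers had a median of 0.03 and means from -0.07 to 0.12, with MFA1 at 0.06 and MFA2 at 0.12. The 2 measured alpha markers had means of -0.06 and -0.11, the latter for SAG1. Ratios hold no level, so they cannot show whether the marker genes were expressed.

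The cell wall integrity cascade had 0 of 8 genes past the test, and 7 of the 8 had opposite signs on the arrays (59.3% of all ORFs). Its median was -5.77e-05 in the mean, 0.22 on replicate 1 and -0.15 on replicate 2. SLT2, its MAP kinase gene, was 0.62 and 0.43, a mean of 0.53 ± 0.13 (SD, n = 2), and missed the threshold (limma adjusted p = 0.0630). It passed with each array centred on its median (limma adjusted p = 0.0254) and with ORFs differing by more than 1 between arrays left out (limma adjusted p = 0.0175). Prior degrees of freedom were infinite when centred and 94.1 in the other fit, against 23.5 as deposited. Both fits thus leaned more on the spread pooled over ORFs, so passing there is no separate support for SLT2. SLT2 did not pass with arrays centred and scaled (limma adjusted p = 0.177), nor with replicate 1 turned, where its mean was -0.09 (limma adjusted p = 0.921).

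Targets of the cell wall integrity pathway rose in part, in the reading as deposited. Of 12 listed targets 5 passed the test as higher and 0 as lower, against 0.772% and 0.0% of all ORFs. Their median was 0.44. On both arrays 10 of the 12 were above 0, against 14.0% of all ORFs, and 2 had opposite signs, against 59.3%. Those 2 were GSC2 (0.30 on replicate 1, -0.40 on replicate 2) and HSP150 (0.07 on replicate 1, -0.26 on replicate 2). The list was chosen with earlier results of these data known, so its direction is no independent evidence. KDX1, a paralogue of SLT2, had the highest mean of the list, 1.36 ± 0.13 (SD, n = 2; limma adjusted p = 1.69e-07). CRG1, a methyltransferase gene, had 1.07 ± 0.02. The wall mannoprotein gene CWP1 had 0.93 ± 0.21. PRM5 had 0.76 ± 0.25 and NCW2, a wall protein gene, had 0.66 ± 0.24. With replicate 1 turned 0 of the 12 passed and the median was 0.07, and with arrays centred and scaled 3 passed. The difference between this list and the Sho1 branch was not tested. At an unadjusted limma p under 0.05, the 10 lists held 8 of these 12 targets, PTP2, SLT2 and 0 other genes. Over all ORFs, 3.60% reached that level.

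**Figure D4:**
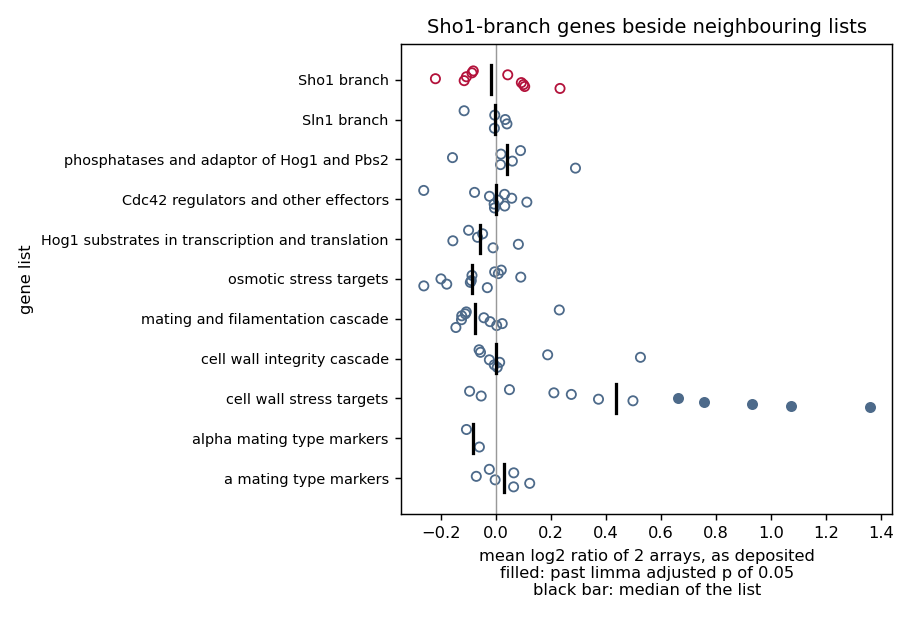
Mean log2 ratio of 2 arrays, as deposited (x axis), for each measured gene of the Sho1 branch and of 10 neighbouring lists; filled circles passed limma's adjusted p of 0.05 and black bars are list medians. Filled circles occur in the list of cell wall stress targets only, where 5 of 12 passed, and the Sho1-branch genes lie between -0.22 and 0.23.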

How the data were processed

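The values that the authors deposited are log2 ratios, 1 for each ORF on each array. The log base follows from the table itself: on both arrays, 100% of values turned into multiples of 0.0001 (tolerance 1% of this step) as powers of 2. Per the labels' protocols, cells were broken mechanically and first-strand cDNA of their RNA carried Cy3 or Cy5. The sources used here do not give the normalization, direction, array build or rule for missing spots, nor whether a record is 1 array or a mean of several. The design text speaks of 4 arrays per condition. Without spot intensities the signal under a ratio is unknown, and precision is limited by having 2 arrays.

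Replicate 1 had 5552 values and replicate 2 had 5347; 2 control rows were left out. Names came from the R64 annotation, which matched 5654 of 6207 ORF names. The columns were used as deposited, with medians of -0.03 and -0.02. Means were tested against 0, two-sided, with limma 3.58.1 in R 4.3.3 (intercept, eBayes) over 5311 ORFs with both values, at a Benjamini-Hochberg adjusted p of 0.05. No dye term was fitted, since it would use up the residual degree of freedom. The fit was tested on simulated data. Their errors were independent and drawn from the spread fitted to these arrays, so that test checks the code and not the assumptions.

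The members and lists were chosen with earlier results of these data known. The text names all 10 members, SHO1, list genes past the test and otherwise up to 2 per list with the largest smaller absolute value among genes of 1 sign; other names were chosen after their values were seen. A planned search of promoters for motifs was not run. Python 3.11.15, pandas 2.3.3 and matplotlib 3.10.9 made tables and plots.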

Additional observations from a re-analysis of the deposited data

How the results depend on the processing

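No alternative brought a Sho1-branch gene past limma's adjusted p of 0.05. Over the fits with centred, scaled, robust, single-value and concordance settings the lowest adjusted p of the 10 genes was 1.00, and 0 of them changed sign. With replicate 1 turned, means changed sign to -0.16 (OPY2), -0.25 (CDC42), 0.0844 (CLA4), -0.0145 (STE11), 0.0984 (PBS2) and 0.12 (HOG1). Elsewhere they did so to -0.0594 (PTP2), -0.0488 (BEM3), 0.110 (MSN1), 0.0235 (GPP2), 0.0187 (STE4), -0.0928 (SLT2), -0.0937 (KDX1) and -0.0743 (MFA2). In the same reading 0 ORFs passed and 0 cell wall stress targets. Medians then became 0.0182 for the branch, -0.0320 for the phosphatases, 0.00255 for the Hog1 substrates, 0.0235 for the osmotic targets, -0.176 for the cell wall integrity cascade, -0.0629 for the Sln1 branch, -0.0508 for the Cdc42 regulators, -0.0504 for the mating and filamentation cascade, 0.0704 for the cell wall stress targets, 0.14 for the alpha markers and -0.000232 for the a markers. Scaling gave 21 ORFs past the test and 3 cell wall stress targets. SLT2 passed, as 1 gene of its cascade, under centring and under the concordance setting. The a markers had a median of 0.0566 when centred and 0.0567 when scaled. Single arrays ranged from -0.0621 to 0.263 for OPY2, from -0.16 to 0.35 for CDC42, from -0.185 to 0.0119 for PBS2 and from -0.202 to 0.0386 for HOG1. They ranged from -0.0251 to 0.0181 for the branch median, from -0.124 to -0.0128 for the osmotic targets, from -0.123 to 0.000247 for the mating and filamentation cascade and from 0.0193 to 0.0325 for the a markers. The causes were not tested. No paired analysis was possible because the design has 1 group of ratios.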

Other observations

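Some kinase genes beside the branch had large values of opposite sign on the 2 arrays, and were chosen after their values were seen. Over all ORFs, 59.3% had opposite signs on the arrays. MKK1 and MKK2, which encode a redundant pair of MAP kinase kinases above Slt2, were mirror-like. MKK1 was 0.40 on replicate 1 and -0.37 on replicate 2, while MKK2 was -0.31 and 0.26. KSS1, the filamentation MAP kinase gene, was -0.47 on replicate 1 and 0.42 on replicate 2. As deposited, each of these means lay within 0.03 of 0 on the log2 scale. With replicate 1 turned the means were -0.38 for MKK1, 0.29 for MKK2 and 0.45 for KSS1. None of the 3 passed limma's test in either reading (adjusted p = 0.487 for each when turned). That value was also the lowest limma adjusted p of all ORFs in the turned reading, so it does not set these genes apart.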
